A study of Mus musculus with 6 samples.

Results

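The genes described here were the ligands and receptors of the classical axon guidance pathways: the semaphorins with their plexin and neuropilin receptors, the ephrins with the Eph receptor tyrosine kinases, the netrins with Dcc and the Unc5 receptors, and the Slit proteins with the Robo receptors. They were chosen by gene symbol alone, and 71 mouse genes carried such a symbol. At least 1 named probe was found for 70 of the 71, with *Sema4b* as the exception, and 58 passed the filter on dim probes and were tested. RNA was compared between 3 WT samples and 3 IG27 samples. WT cells were OS3 cells that carried an empty vector, and IG27 cells were OS3 cells transfected with H3F3A_K27M, a histone H3.3 whose lysine at residue 27 is replaced by methionine. OS3 is a glial line from the brain of male C3H mice (newborn C3H/HeN by the study's methods), immortalized with SV40, so both groups shared this immortalization, the culture medium, and 2 days of culture before RNA extraction. The samples of a group were replicate samples of 1 line. By the study's methods, drug selection after transfection gave several clones, but the sources did not say whether each line came from 1 clone. A difference caused by the mutation and a difference between the 2 lines thus cannot be told apart. The p-values measure the spread between these replicate samples.

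Guidance molecules steer growing axons and migrating cells by attracting or repelling them. Class 3 semaphorins are secreted and signal through neuropilins paired with plexins, whereas semaphorins of classes 4 to 7 are mostly anchored in the membrane and bind plexins directly. Ephrins are themselves bound to the membrane, so that ephrins and Eph receptors signal where cells touch, in both directions. Slits repel through Robo receptors, and netrins attract through Dcc or repel through Unc5. Glial progenitors and glioma cells also express members of these families.

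Each sample was measured on 1 single-color Agilent array, and all 6 arrays were on 1 slide. Levels are log2 of the processed intensity, with 0 at the 75th percentile of the array, so a level can be compared between arrays for 1 gene but not between genes. Arrays correlated at Pearson r of 0.994 to 0.997 within groups and 0.902 to 0.905 between them, across the 14894 tested genes with 1 probe each. On the arrays with complete scanner output, 58.8% to 61.2% of probes were well above background, which is the flag of the scanner software, and no spot was saturated. That flag was not at hand for IG27 replicate 2, so it counts over 3 WT and 2 IG27 arrays. The glial label was set against marker genes. *Gfap*, an astrocyte filament, lay at 6.56 to 6.71 in WT and 5.41 to 5.70 in IG27 cells, *Sox10* of the oligodendrocyte lineage at 5.74 to 5.81 and 5.36 to 5.45, and *Gja1*, an astrocyte connexin, was well above background on 1 IG27 array only and was not tested. The mouse *H3f3a* probe read 6.70 to 6.96 in WT and 6.52 to 6.61 in IG27 cells, and the sources did not give whether it reads the transcript of the plasmid.

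Of the 58 tested guidance genes, 44 (75.9%) were called at an adjusted p below 0.05 between the groups (limma, Benjamini-Hochberg over 14894 genes), 18 higher and 26 lower in IG27. Among all tested genes, 70.5% were called by the same test, 30.5% higher and 40.0% lower, so the share of guidance genes called was near the background. When each array was scaled to its median instead, the split was 15 higher and 33 lower for the guidance genes and 20.3% higher and 53.4% lower for all genes, whose median log2 difference moved from -0.07 to -0.31. A difference of at least 2-fold was called for 31 of 58 guidance genes, 11 higher and 20 lower, against 23.1% of all genes, and the median size of the difference was 1.08 on the log2 scale against 0.46. The groups did not overlap for 47 of the 58, among them the 44 called, and for 75.7% of all tested genes. The filter touched these counts. Of the 58, 15 genes passed it through 1 group only, which favors a difference. Of the 15, 13 were called. The matching share of all genes was not counted, so this count shows nothing particular to guidance genes. The other 43 were well above background on each complete array, and 31 of them were called (72.1% against 70.7% of all such genes), 20 of them at 2-fold or more (46.5% against 18.4%). Of these 20, 3 were higher and 17 lower, against 1076 and 1419 of all such genes, and the median size was 0.89 against 0.42. Of the 11 guidance genes called higher by at least 2-fold, 8 passed the filter only through IG27. Members of 1 pathway are not independent of each other, and the difference between these shares was not tested.

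**Figure D1:**
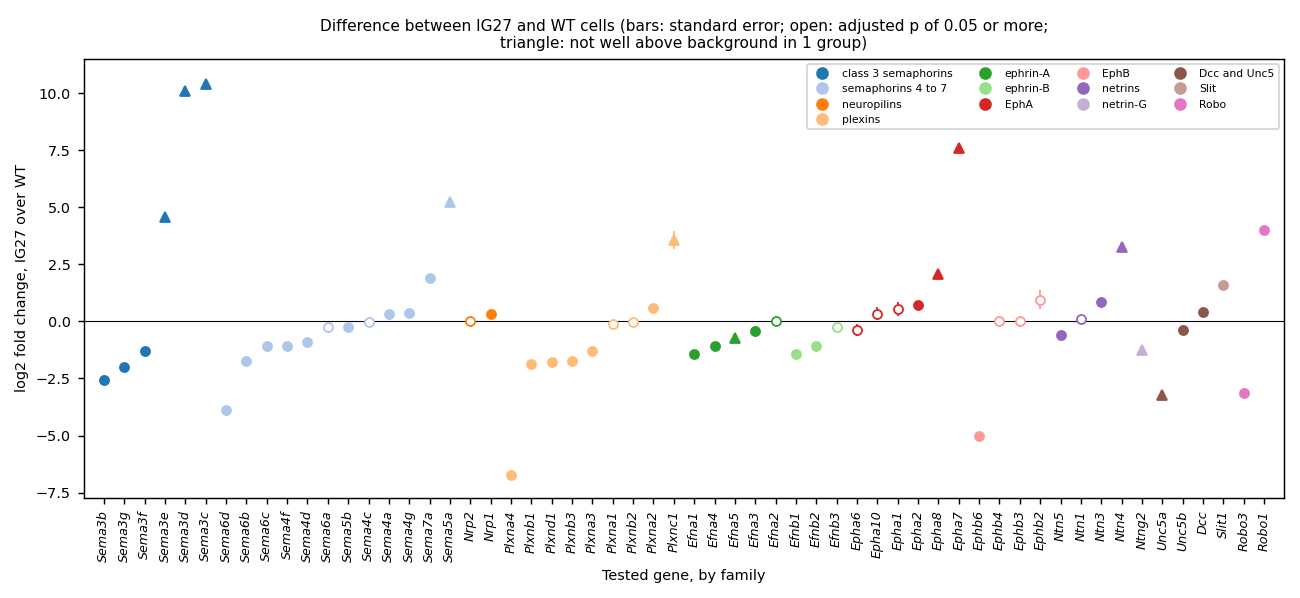
Difference between IG27 and WT cells for the 58 tested guidance genes, as log2 fold change (vertical axis) with its standard error, ordered within families. Triangles mark genes not well above background in 1 group, whose fitted values rest on background there (*Sema3c* was at least 363.6-fold and *Sema3d* at least 258.3-fold higher). *Plxna4*, measured in both groups, lies lowest at -6.71, and none of the 8 ephrins was called higher (30.5% of all tested genes were).

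Below, the levels of a gene are listed for replicates 1, 2 and 3 of each group, and a difference is the mean of 3 IG27 samples minus that of 3 WT samples, on the log2 scale ± standard error. Adjusted p-values of the genes called at 2-fold or more ran from 1.03e-07 for *Sema3d* to 0.00436 for *Ntng2* (limma, Benjamini-Hochberg). Genes were listed by size only where called, at least 2-fold different and without overlap between groups. Their lack of overlap was thus set by this listing rule, and 75.7% of all tested genes also had groups without overlap. Where no complete array of 1 group was well above background, the fold is given as a bound ("at least"), set against the dimmest probe well above background on each array of that group or the gene's own value if higher. The dimmest such values were -6.01 to -5.53 on the WT arrays. These bounds hold for the processed intensity. With normexp background correction of the median signals, whose offset of 50 shrinks differences of dim probes, 14 of the 44 called genes had folds smaller by over 1.5 times, and all 11 genes with a bound lay below it.

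The class 3 semaphorins were split between large rises and falls. All 6 tested members were called, 3 higher and 3 lower, against 70.5% of all tested genes called. *Sema3c*, which is known to act on endothelial and neural crest cells, read -7.29, -7.58 and -8.15 in WT cells and 2.81, 2.71 and 2.69 in IG27 cells. *Sema3d*, another secreted class 3 ligand, read -7.80, -7.61 and -8.17 in WT cells and 2.37, 2.20 and 2.16 in IG27 cells. *Sema3e*, which binds plexin D1 without a neuropilin, read -7.70, -7.70 and -8.19 in WT cells and -3.20, -3.37 and -3.33 in IG27 cells. None of the 3 was well above background on any WT array, and all were on each complete IG27 array. *Sema3c* was at least 363.6-fold higher in IG27 cells, *Sema3d* at least 258.3-fold and *Sema3e* at least 5.54-fold, with fitted differences of 10.41 ± 0.21, 10.10 ± 0.15 and 4.57 ± 0.14 that rest on WT levels at background. With normexp they were 96.5-fold, 74.0-fold and 2.92-fold higher.

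The 3 class 3 semaphorins that fell were measured in both groups. *Sema3b*, a secreted ligand of neuropilins, read 4.41, 4.26 and 4.73 in WT cells and 2.20, 1.34 and 2.12 in IG27 cells, a fall of 2.59 ± 0.25 in which IG27 replicate 2 lay lowest. *Sema3f*, the main ligand of neuropilin 2, read 3.86, 3.78 and 3.83 against 2.52, 2.44 and 2.58, or 2.48-fold lower. *Sema3g* read -2.32, -2.28 and -2.21 against -4.09, -4.42 and -4.35, or 4.05-fold lower (2.14-fold with normexp). The lowest WT sample stayed above the highest IG27 sample for each of them, as the listing rule required. *Sema3a*, the founding collapsin, was not well above background on any complete array and was not tested.

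*Sema3d*, *Sema3a*, *Sema3e* and *Sema3c* lie in this order along chromosome 5. By the RefSeq annotation, 18 further protein-coding genes lie between *Sema3d* and *Sema3c*. Of the 18, 9 had a named probe and 4 were tested, of which none was called higher, 1 (*Gm17019*) was called lower and 3 were not called. *Hgf*, which encodes the ligand of the Met receptor, and *Cacna2d1*, a calcium channel subunit, lie in this interval and were not well above background on any complete array. The median difference of all 920 tested genes on chromosome 5 was 0.03. Promoters of *Sema3c* and *Sema3d* are printed here because both transcripts were at least 258.3-fold higher in IG27 cells from WT levels not well above background. They span 250 bases before to 50 after the annotated start (RefSeq, GRCm38.p6), and CG dinucleotides are in capitals.
Sema3c (chr5:17574566-17574865, plus strand): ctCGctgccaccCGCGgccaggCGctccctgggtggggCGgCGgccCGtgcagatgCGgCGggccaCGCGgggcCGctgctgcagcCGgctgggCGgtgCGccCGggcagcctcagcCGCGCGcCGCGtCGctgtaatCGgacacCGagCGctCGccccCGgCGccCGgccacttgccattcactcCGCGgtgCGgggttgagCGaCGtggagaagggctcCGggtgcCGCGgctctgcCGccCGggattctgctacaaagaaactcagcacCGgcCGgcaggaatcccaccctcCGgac
Sema3d (chr5:12382916-12383215, plus strand): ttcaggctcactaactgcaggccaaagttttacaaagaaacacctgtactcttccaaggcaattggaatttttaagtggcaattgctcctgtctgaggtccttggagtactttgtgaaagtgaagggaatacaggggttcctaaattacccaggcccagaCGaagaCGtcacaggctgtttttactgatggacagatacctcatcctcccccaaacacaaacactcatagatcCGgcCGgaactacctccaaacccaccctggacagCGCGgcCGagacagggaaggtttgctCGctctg
The *Sema3c* window holds 42 CG dinucleotides and 75.7% G or C, whereas the *Sema3d* window holds 8 and 49.7%. The 2 windows thus differ in base composition.

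Among semaphorins 4 to 7, 10 of 12 tested members were called (83.3% against 70.5% of all tested genes), 4 higher and 6 lower. The largest rise was that of *Sema5a*, a transmembrane semaphorin with thrombospondin repeats, which read -8.10, -7.85 and -8.34 in WT cells and -2.84, -2.71 and -3.08 in IG27 cells, at least 7.42-fold higher (3.35-fold with normexp). *Sema7a*, the semaphorin anchored by a lipid, read -2.30, -2.35 and -2.19 against -0.36, -0.46 and -0.33, a rise of 1.89 ± 0.06 or 3.71-fold. *Sema5a* was not well above background on any WT array, whereas *Sema7a* was measured on all arrays. The other 2 that rose, *Sema4a* and *Sema4g*, differed by 0.33 and 0.38. The call of *Sema4a* was lost in several settings, among them leaving out WT replicate 2 or 3 or IG27 replicate 1 or 2.

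Class 6 semaphorins, transmembrane ligands of the A plexins, had 3 of 4 members called, all lower. Of all tested genes 40.0% were called lower. *Sema6d* read 3.04, 2.95 and 3.05 in WT cells and -0.93, -0.76 and -0.86 in IG27 cells, or 14.5-fold lower, with a difference of -3.86 ± 0.06. *Sema6b* read 2.23, 2.03 and 2.10 against 0.33, 0.33 and 0.49, or 3.33-fold lower. *Sema6c* read 0.13, -0.03 and 0.10 against -1.06, -1.03 and -0.96, or 2.12-fold lower. The groups stood apart in all 3, as the listing rule required. For *Sema6a* WT replicate 1 at -0.95 lay below the IG27 samples, at -0.65 to -0.51, whereas the other WT samples lay at -0.02 and -0.01, and the 95% interval of the difference ran from -0.89 to 0.38. Without that WT sample *Sema6a* was called lower. Its second, dimmer probe fell by 0.33 ± 0.07 and was called lower on all arrays, with WT samples at -2.43 to -2.38. Of the rest, *Sema4d*, *Sema4f* and *Sema5b* fell by 0.89, 1.07 and 0.24. The probe of *Sema4c*, the brightest of these semaphorins, read 6.02, 5.87 and 5.94 against 5.84, 5.99 and 5.92, with overlapping groups and an interval of -0.19 to 0.13.

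**Figure D2:**
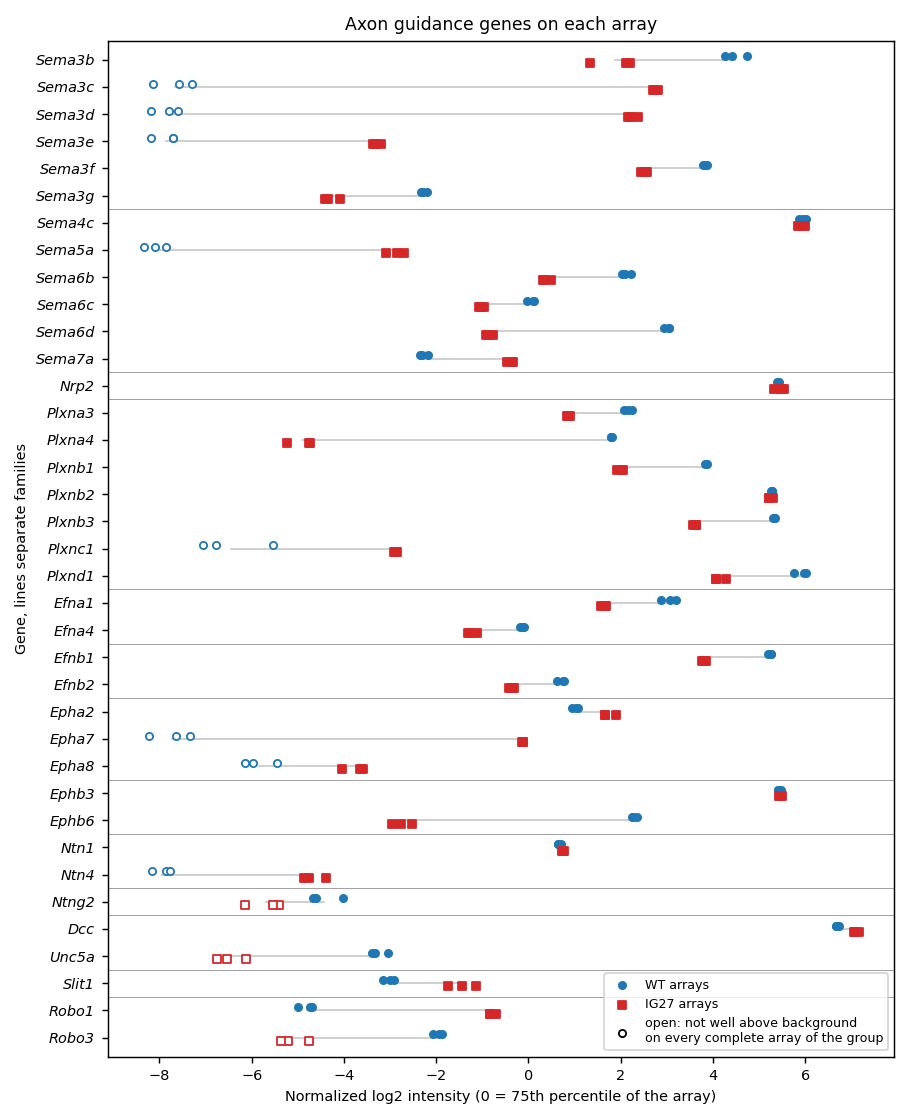
Normalized log2 intensity (horizontal axis, 0 at the 75th percentile of the array) of the 37 guidance genes named by size of difference or as the brightest of their family, 1 point per array. WT and IG27 points of *Sema3c*, *Sema3d*, *Epha7* and *Plxna4* lie far apart, whereas those of *Sema4c*, *Nrp2*, *Plxnb2* and *Ephb3* lie together.

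Of the receptors for semaphorins, the 9 plexins were all tested, and 2 were called higher and 5 lower. The share of plexins called was 77.8%, against 70.5% of all tested genes. *Plxna4*, a receptor for class 6 and, with neuropilins, class 3 semaphorins, showed the largest fall of all the guidance genes. It read 1.82, 1.79 and 1.80 in WT cells and -4.76, -5.23 and -4.73 in IG27 cells, a difference of -6.71 ± 0.14 or 104.8-fold (35.4-fold with normexp). Its probe was well above background on each complete array of both groups, so this fold was measured on both sides, but the IG27 levels lay near the dimmest detected values of those arrays, -5.37 to -5.33. *Plxnc1*, the receptor of Sema7a, rose, from -5.53, -6.78 and -7.05 to -2.85, -2.88 and -2.91, or at least 7.01-fold (2.66-fold with normexp). It was read by 1 probe, and WT replicate 1 lay highest among the WT samples. *Plxna2* rose by 0.57.

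The plexin B and D receptors mostly fell. *Plxnb1*, the receptor of Sema4d, read 3.85, 3.83 and 3.88 in WT cells and 1.92, 2.02 and 2.05 in IG27 cells, or 3.62-fold lower. *Plxnb3*, a receptor of Sema5a, read 5.31, 5.34 and 5.29 against 3.56, 3.62 and 3.63, or 3.28-fold lower. *Plxnd1*, the receptor of Sema3e, read 6.03, 5.76 and 5.96 against 4.28, 4.06 and 4.06, or 3.44-fold lower. The SD within groups (n = 3) was at most 0.139 for these 3 genes, against falls of 1.71 to 1.86. *Plxna3* read 2.16, 2.06 and 2.25 against 0.87, 0.83 and 0.90, or 2.44-fold lower. *Plxnb2*, a receptor of class 4 semaphorins, read 5.29, 5.26 and 5.27 against 5.22, 5.29 and 5.22, with an interval of -0.14 to 0.09, and that of *Plxna1* was -0.33 to 0.11.

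Neither of the neuropilins, the binding receptors of class 3 semaphorins, differed by 2-fold on its brightest probe. *Nrp2* read 5.39, 5.43 and 5.41 in WT cells and 5.33, 5.47 and 5.53 in IG27 cells, with overlapping groups and an interval of -0.12 to 0.19. *Nrp1* was 0.33 ± 0.10 higher (adjusted p = 0.0262, limma with Benjamini-Hochberg), with WT samples at 1.74 to 1.82 and IG27 samples at 1.96 to 2.33. Its other 2 probes were 1.09 and 0.62 higher. The call of *Nrp1* on its brightest probe was lost without any 1 of the WT samples or IG27 replicate 2. Set side by side, ligand and receptor rose for *Sema7a* with *Plxnc1*, both fell for *Sema4d* with *Plxnb1*, and the ligand rose while the receptor fell for *Sema3e* with *Plxnd1* and for *Sema5a* with *Plxnb3*. These pairs were named from their known binding after the values were seen, and protein was not measured.

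No ephrin was called higher. Of the 8, all tested, 6 were called lower, and *Efna2* and *Efnb3* were not called, with intervals of -0.15 to 0.22 and -0.52 to 0.03. *Efna1* read 3.20, 2.87 and 3.08 in WT cells and 1.57, 1.69 and 1.66 in IG27 cells, or 2.66-fold lower. *Efna4* read -0.15, -0.19 and -0.11 against -1.31, -1.26 and -1.12, or 2.12-fold lower. *Efna1*, *Efna3* and *Efna4* lie in a cluster on chromosome 3, and *Efna3* fell by 0.41. The median difference of all 738 tested genes on chromosome 3 was -0.31. After that median was subtracted, *Efna1*, *Efna3* and *Efna4* were at -1.10, -0.10 and -0.77. Among the ephrins with a transmembrane domain, *Efnb1* read 5.25, 5.19 and 5.26 against 3.81, 3.77 and 3.84, or 2.69-fold lower. *Efnb2*, an arterial marker in vessels, read 0.76, 0.63 and 0.77 against -0.32, -0.35 and -0.42, or 2.11-fold lower. *Efna1*, *Efna4*, *Efnb1* and *Efnb2* each had non-overlapping groups, as the listing rule required. *Efna5* fell by 0.74 and by at least 1.48-fold, since no complete IG27 array was well above background. Without IG27 replicate 3 another *Efna5* probe was the brightest and was used, and it fell by 1.34. Over all arrays that other probe fell by 1.28 ± 0.15 and was called. With normexp *Efna5* was 1.13-fold lower.

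Of the 14 Eph receptors, 10 were tested, and 3 were called higher and 1 lower (40.0% called, against 70.5% of all tested genes). *Epha7*, a receptor of A ephrins with roles in cortical patterning, read -7.34, -7.64 and -8.23 in WT cells and -0.13, -0.12 and -0.11 in IG27 cells, at least 50.1-fold higher, with a fitted difference of 7.61 ± 0.22 (13.7-fold with normexp). All 4 of its probes were called higher, with differences of 4.04 to 7.61, and none was well above background on a WT array. *Epha8* read -5.96, -5.45 and -6.14 against -3.59, -3.66 and -4.05, at least 3.93-fold higher (1.69-fold with normexp). *Epha2*, the A receptor with the brightest probe, read 1.04, 0.94 and 1.08 against 1.66, 1.66 and 1.90, or 1.65-fold higher. The other 3 tested A receptors, *Epha1*, *Epha6* and *Epha10*, were not called, with intervals of -0.16 to 1.25, -0.98 to 0.23 and -0.35 to 1.02. *Epha6* was called lower with quantile normalization, with scaling to the median, and without WT replicate 3. *Epha1* was called higher with normexp and without IG27 replicate 2.

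Among the B receptors, *Ephb6*, which lacks kinase activity, read 2.27, 2.24 and 2.36 in WT cells and -2.95, -2.52 and -2.77 in IG27 cells, or 32.9-fold lower. Its second, dimmer probe fell by 0.78 ± 0.25, so the size of the fall differed between its probes, and the mean of both fell by 2.91. *Ephb2* read 2.89, 2.90 and 1.43 in WT cells and 3.47, 3.40 and 3.20 in IG27 cells. The groups did not overlap, WT replicate 3 lay far below the other WT samples, and the difference of 0.95 ± 0.41 was not called (adjusted p = 0.0773, limma with Benjamini-Hochberg). Without WT replicate 3 it was called higher. A second, dimmer *Ephb2* probe was 0.37 ± 0.05 higher and was called on all arrays (adjusted p = 0.00101, limma with Benjamini-Hochberg). *Ephb3* read 5.41, 5.40 and 5.47 against 5.43, 5.50 and 5.45 with an interval of -0.08 to 0.15, and the interval of *Ephb4* was -0.16 to 0.19. *Epha3*, *Epha4*, *Epha5* and *Ephb1* were not well above background on any complete array. Promoters of *Epha7* and *Ephb6*, the Eph receptors with the largest rise and the largest fall, are printed in the same form.
Epha7 (chr4:28812881-28813180, plus strand): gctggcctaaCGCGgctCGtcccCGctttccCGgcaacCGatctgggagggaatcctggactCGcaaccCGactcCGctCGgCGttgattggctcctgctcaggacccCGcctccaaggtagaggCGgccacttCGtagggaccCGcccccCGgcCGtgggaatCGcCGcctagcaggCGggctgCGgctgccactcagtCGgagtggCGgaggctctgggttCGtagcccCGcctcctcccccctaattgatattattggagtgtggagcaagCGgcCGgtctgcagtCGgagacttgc
Ephb6 (chr6:41605261-41605560, plus strand): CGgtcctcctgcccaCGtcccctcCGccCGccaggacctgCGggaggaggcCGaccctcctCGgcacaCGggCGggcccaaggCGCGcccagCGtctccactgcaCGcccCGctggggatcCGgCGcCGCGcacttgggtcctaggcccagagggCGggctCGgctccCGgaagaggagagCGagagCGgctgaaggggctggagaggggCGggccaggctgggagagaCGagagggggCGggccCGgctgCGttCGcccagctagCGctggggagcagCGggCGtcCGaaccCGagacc
The windows of *Epha7* and *Ephb6* hold 28 and 34 CG dinucleotides, and both hold the letters GGGCGG, *Epha7* on the minus strand and *Ephb6* on both.

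A promoter window was listed for 61 of the 71 guidance genes, and these were described without a test. They held a median of 22 CG dinucleotides, against 7 in all 27025 listed promoters and 19 in those of all tested genes. GGGCGG, the letters of the GC box, stood on either strand in 44 of the 61 (72.1%), against 35.9% of all listed promoters and 59.5% of those of tested genes. TATAAA stood in 3.28% of the 61 on either strand, against 14.2% of all listed promoters and 8.48% of those of tested genes. Between guidance genes called higher and lower the median number of CG dinucleotides was 23 (16 promoters) and 20 (23 promoters). A match of letters is not a binding site, and binding was not measured.

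Of the 4 netrins 2 were called higher and 1 lower, and of the 2 netrin-G genes 1 was tested and called lower. Of all tested genes 30.5% were called higher and 40.0% lower. *Ntn4*, a netrin that binds laminin in basement membranes, read -7.85, -7.78 and -8.17 in WT cells and -4.40, -4.76 and -4.87 in IG27 cells, at least 2.14-fold higher (1.71-fold with normexp). *Ntn1*, the classical attractant, read 0.65, 0.64 and 0.71 against 0.75, 0.73 and 0.77, with an interval of -0.02 to 0.20. *Ntn3* rose by 0.85 and *Ntn5* fell by 0.61. *Ntng2*, a netrin anchored by a lipid, read -4.61, -4.66 and -4.03 against -5.40, -5.55 and -6.14, at least 1.89-fold lower (1.34-fold with normexp). Its groups stood apart, as the listing rule required, but no complete IG27 array was well above background. Its call was lost with the slide row as a block (adjusted p = 0.0568, limma with Benjamini-Hochberg).

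*Unc5a*, a receptor through which netrins repel, read -3.06, -3.33 and -3.38 in WT cells and -6.54, -6.13 and -6.75 in IG27 cells, at least 4.26-fold lower (2.40-fold with normexp). *Unc5b* fell by 0.39, whereas *Unc5c* and *Unc5d* were not well above background. For *Dcc* the probe used read 6.67, 6.72 and 6.66 against 7.16, 7.07 and 7.05, a rise of 0.41 ± 0.05. The other 3 *Dcc* probes were not well above background on any complete array, so the level of this gene depended on 1 probe of 4.

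In the Slit and Robo families the ligand *Slit1* rose, from -3.16, -2.91 and -3.01 in WT cells to -1.44, -1.14 and -1.74 in IG27 cells, or 3.00-fold. *Slit2* and *Slit3* were not well above background on any complete array. *Robo1*, a main Slit receptor of the brain, read -4.73, -4.69 and -4.99 against -0.70, -0.84 and -0.84, or 16.1-fold higher (6.50-fold with normexp). *Robo3*, known from axons that cross the midline, read -2.06, -1.94 and -1.88 against -5.22, -4.76 and -5.37, or 8.91-fold lower (3.58-fold with normexp). *Robo1* and *Robo3* thus moved in opposite directions. The second probe of *Robo1* was not well above background, and *Robo3* was well above background on 1 of the 2 complete IG27 arrays. *Robo2* and *Robo4* were not tested.

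**Figure D3:**
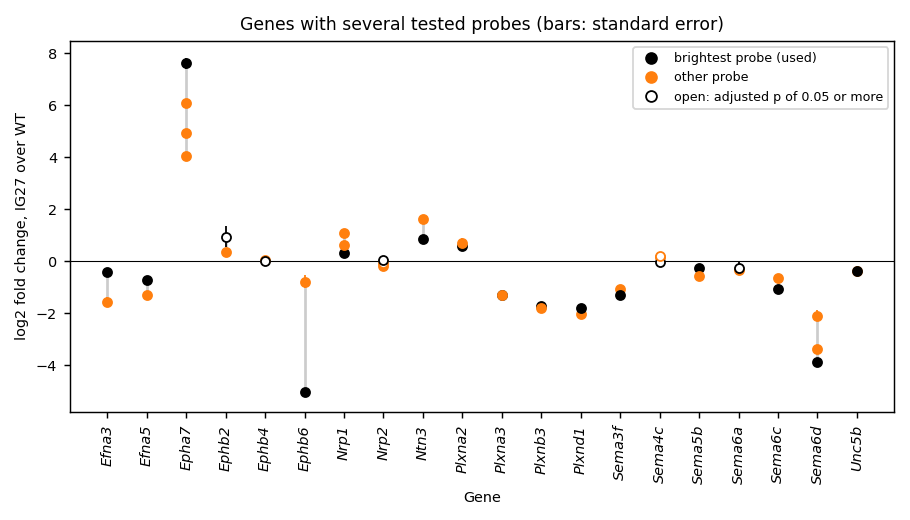
Log2 fold change with its standard error (vertical axis) for each probe of the 20 guidance genes with several tested probes. Probes of *Epha7* lie between 4.04 and 7.61 and those of *Ephb6* at -5.04 and -0.78, and open points of *Nrp2* and *Sema4c* lie on either side of 0.

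The 70 guidance genes were read by 118 probes. Of the 20 genes with more than 1 tested probe, 18 had all probes of the same sign, and none had probes called in both directions. In the other 2, *Nrp2* and *Sema4c*, the probes differed by sign and the brightest was not called. A dimmer probe of *Nrp2* fell by 0.18 and was called. A further 8 tested genes, *Dcc*, *Epha6*, *Epha10*, *Ntn5*, *Ntng2*, *Plxnc1*, *Robo1* and *Sema5a*, had other probes that were not well above background on any complete array. Sizes differed between probes also for *Efna3*, whose second probe fell by 1.57, and *Ntn3*, whose second probe rose by 1.63. The 3 tested probes of *Sema6d* fell by 3.86, 3.36 and 2.09.

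Guidance genes on 3 chromosomes were mostly lower in IG27 cells, as were the other genes there. Among the chromosomes with tested guidance genes, 8, 9 and X had the lowest medians over all genes, at -0.67, -0.64 and -0.59. All 10 tested guidance genes on these chromosomes were called, 8 lower and 2 higher (*Nrp1* and *Sema7a*), with a median of -1.37. Of all 2095 genes tested there, 83.1% were called, 1474 lower and 266 higher, with a median of -0.64. The 8 were *Efnb1*, *Efnb2*, *Plxna3*, *Plxnb1*, *Plxnb3*, *Robo3*, *Sema3b* and *Sema3f*. On the other chromosomes 48 guidance genes were tested, 16 higher and 18 lower (70.8% called, against 68.4% of all genes there), with a median of -0.01 against 0.00. After the median of its chromosome was subtracted, each of the 44 called genes kept its sign, but sizes changed. *Efnb2*, *Sema3f*, *Plxna3* and *Efnb1* on chromosomes 8, 9 and X then fell by less than 2-fold, at -0.41, -0.67, -0.69 and -0.83. So did *Sema6c*, *Efna4*, *Sema4f* and *Ntng2* elsewhere, at -0.77, -0.77, -0.85 and -0.93. Among genes called at 2-fold or more, the differences of *Sema7a* and *Sema6b* grew instead, to 2.53 and -1.89. The part of chromosome in these differences was not tested, and these 3 chromosomes were chosen with their medians known.

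**Figure D4:**
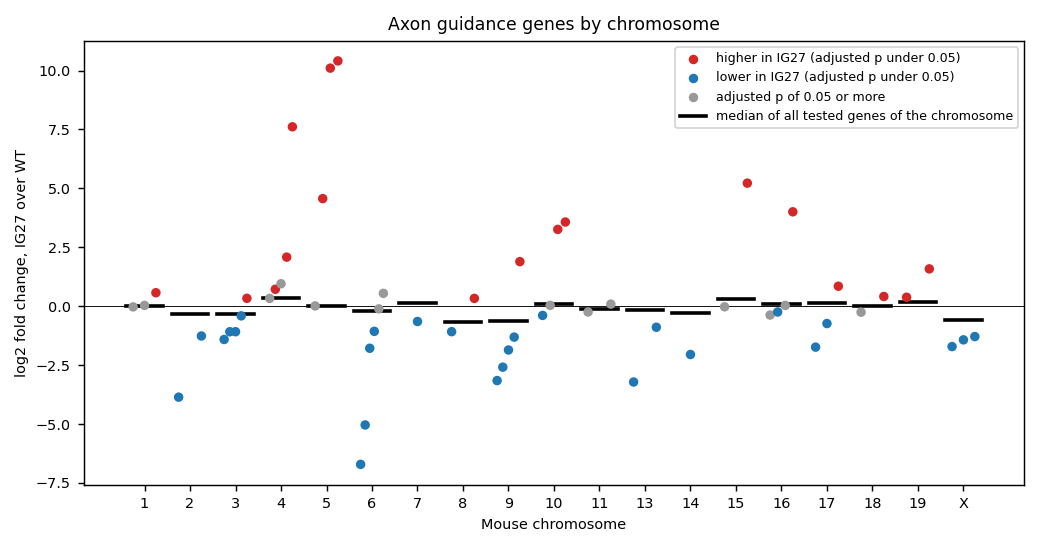
Log2 fold change of the tested guidance genes (points, vertical axis) by mouse chromosome, with the median of all tested genes of each chromosome as a bar. The bars of chromosomes 8, 9 and X lie at -0.67, -0.64 and -0.59, and *Sema3c*, *Sema3d* and *Sema3e* lie far above the bar of chromosome 5.

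Partners of the guidance receptors were taken from a list of 74 co-receptors and intracellular proteins, all with a probe. Of the 68 tested, 24 were called higher and 32 lower, or 82.4% against 70.5% of all genes, with a median difference of -0.14. The median size of the difference was 0.58 in this list, 1.08 in the ligands and receptors, and 0.46 in all genes, which was not tested. Those with a difference of 2 or more on the log2 scale were 4 that rose and 4 that fell. *Flrt2* and *Flrt3*, which encode adhesion proteins that bind Unc5 receptors, were at least 48.4-fold and at least 11.02-fold higher in IG27 cells and were not well above background on any WT array. *Flrt2* read -7.32, -6.67 and -6.49 in WT cells and -0.11, -0.23 and -0.19 in IG27 cells. *Mical2*, an enzyme that oxidizes actin, and *Ngef*, an exchange factor of Eph receptors, rose by 2.24 and 2.02.

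On the other side, *Chn1*, a Rac regulator in Eph signaling, read -0.79, -0.74 and -0.63 in WT cells and -4.29, -4.27 and -4.28 in IG27 cells. *Lrrc4*, the binding partner of netrin G2, fell by 3.32 ± 0.05, beside the fall of *Ntng2*. *Met*, a receptor kinase that can associate with plexin B1, fell by 2.87, and *Adam10*, a protease that cleaves ephrins and other surface proteins, fell by 2.08. All 4 were measured on each complete array and had non-overlapping groups, which 75.7% of all tested genes also had.

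Several guidance genes are also expressed by blood vessels, neurons and progenitors, so markers of these cells were set beside them, over the tested markers of each list. A sum of their levels, in multiples of the 75th percentile of the array, is led by the brightest probes and is given as a range beside the calls. Of 7 tested of 8 astrocyte markers 3 were called higher and 3 lower, and they summed to 95.9 to 106 in WT and 55.1 to 63.4 in IG27 cells. *Gfap*, *Aldh1l1* and *Slc1a2* fell by 1.07, 1.72 and 1.03. In contrast, *S100b* and *Sox9* rose by 4.93 and 0.71, and *Slc1a3*, not well above background on any WT array, was at least 20.6-fold higher. Of 6 markers of oligodendrocyte progenitors 4 were called higher and 1 lower, with sums of 58.7 to 61.7 and 59.1 to 60.7. *Pdgfra*, *Olig1* and *Olig2* rose by 2.36, 1.48 and 1.51, *Gpr17* was at least 80.1-fold higher, and *Sox10* fell by 0.37. Of 4 tested of 6 neuron markers 1 was called higher and 2 lower, with sums of 17.6 or more in WT cells and 11.01 or less in IG27 cells. *Tubb3* fell by 2.63 and *Stmn2* was at least 5.34-fold lower, whereas *Map2*, well above background on 1 WT array only, rose by a fitted 8.03, and *Rbfox3* and *Syt1* were not well above background on any complete array. The 2 tested of 6 endothelial markers summed to 0.161 to 0.178 and 2.58 to 2.65. Of these *Kdr*, not well above background on any WT array, was at least 134.8-fold higher and *Pecam1* fell by 0.27, whereas *Cdh5*, *Tek*, *Cldn5* and *Tie1*, which define endothelium, were not well above background on any complete array. Of 3 tested of 6 fibroblast and pericyte markers *Col1a1* and *Pdgfrb* fell by 0.92 and 1.16 and *Dcn* was at least 3.32-fold higher, with sums of 126 to 129 and 64.3 to 69.6. Of 5 oligodendrocyte markers 1 was called higher and 2 lower, with sums of 48.7 to 58.9 and 30.6 to 32.2, and of 4 tested of 6 microglia markers 2 were called higher and 2 lower, with sums of 4.93 to 5.29 and 2.62 to 2.92. The part of other cell types in the guidance differences was not tested, and in such bulk samples fewer cells of a type and less RNA per cell cannot be told apart.

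The position on the slide was not balanced. The second row held the IG27 arrays together with WT replicate 2, and the first held WT replicates 1 and 3. With the row as a block, which sets the IG27 samples against WT replicate 2, 40 of the 58 guidance genes (69.0%) and 60.1% of all genes were called, and *Efna5*, *Nrp1*, *Ntng2* and *Sema4a* lost their calls. No called guidance gene changed direction.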

How the data were processed

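Total RNA of 3 WT and 3 IG27 samples was labeled with Cy3 and hybridized to Agilent mouse arrays. The authors scanned the slide and deposited the processed intensity of each spot from Agilent Feature Extraction (version 9.1 per the labels' processing notes) on a linear scale, without scaling between arrays. The headers of the scanner output name another version of this software. The scanner output of IG27 replicate 2 held 285 of 62976 spots, so its values came from the deposited value table, whose 255 comparable probes were equal (relative tolerance 1e-04). That table exchanges WT replicates 2 and 3 relative to the scanner output, whose labels were followed.

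Values were log2 of the intensity minus the 75th percentile of each array, without outlier spots (107 to 210 per complete array). Median intensities were 55.4 to 77.6 over a median local background of 29.0 to 34.0, and 3 arrays per group limit the precision. Of 56605 probes, 32994 were named through accessions (RefSeq, GRCm38.p6), covering 22911 genes. The brightest probe of a gene was tested where each complete array of either group showed it well above background, with limma 3.58.1 in R 4.3.3 (two-sided, Benjamini-Hochberg, threshold 0.05, no covariate), after the script was tested on simulated data. The lowest detected value of IG27 replicate 2 was taken as the mean of the other IG27 arrays. Genes were named with all values where called, non-overlapping and at least 2-fold different (the 30 largest), or where brightest in their family. All other members are given by name with a difference or interval. Partners were named at a log2 difference of 2. The genes, lists and markers were chosen with earlier results of these data known. Alternatives were other normalizations, background correction, filters, handling of outlier spots and of several probes, variance priors, blocks, the value table by label, and each array left out. Proteins were not analysed here.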

Additional observations from a re-analysis of the deposited data

How the results depend on the processing

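Between 40 (slide row as a block) and 48 (arrays scaled to their median) of the 58 guidance genes were called with every alternative that kept the filter, and none of the 44 called genes turned direction in any of the alternatives run. With probes well above background on each complete array, 43 guidance genes were tested, and 10 were called higher and 21 lower. Scaling to the median called 3024 genes higher among all genes. Leaving out each array in turn called 41 to 44 guidance genes (16 to 18 higher, 25 to 27 lower) and 9793 to 10158 of all genes. The differences that changed sign were those of genes not called in the report, although scaling to the median called 7 more of them lower (*Efnb3*, *Epha6*, *Ephb3*, *Ephb4*, *Plxna1*, *Plxnb2* and *Sema4c*) and quantile normalization called *Efnb3* and *Epha6* lower and *Ephb2* and *Ntn1* higher. *Ephb3* was -0.21 with median scaling and -0.0399 with normexp, *Nrp2* -0.20 and -0.0644 with these and -0.0705 with the mean of its probes, and *Ntn1*, *Ephb4* and *Efna2* -0.15, -0.23 and -0.20 with median scaling. *Efna2* was -0.0696 with quantile normalization, *Epha10* was -0.0791 with the slide row as a block, and *Efna2*, *Ephb4* and *Epha10* also changed sign without 1 of the arrays. *Plxnb2* was 0.0797 with quantile normalization, and *Sema4c* 0.0463 with it, 0.11 with the mean of its probes and 0.0435 with the slide row as a block. Without 1 array the range was -0.00764 to 0.0945 for *Nrp2* and -0.0658 to 0.00918 for *Sema4c*. Calls lost in 1 or more alternatives were those of *Efna5*, *Nrp1*, *Ntn5*, *Ntng2*, *Sema4a*, *Sema4g* and *Sema5b*. *Ntng2* was at -1.03 with the slide row as a block. Subtraction of the chromosome median, described above, kept the sign of each called gene but took several falls of 2-fold or more below 2-fold. The replicate number as a block called 45 guidance genes and added *Ephb2*. Deviations of samples with the same number correlated at 0.01, 0.04 and 0.08, so the numbers do not pair the samples. Normexp was run on median signals of the 5 complete arrays, since mean signals were not at hand, and it moved the fold of 14 called genes by over 1.5 times, all downward. The mean of a gene's probes moved *Epha7* to 5.67, *Ephb6* to -2.91 and *Sema6d* to -3.10. Levels under the dimmest detected probe give bounds only, and the cause of the changes was not tested.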
